A study of Homo sapiens with 2 samples.

Results

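DPYSL2, DPYSL3, DPYSL4, DPYSL5 and CRMP1 encode the collapsin response mediator proteins, and their genes were examined for RNA sites recovered with HNRNPC in A549 cells. The members were chosen by name, with earlier results of these data known. Their peaks are those of the deposited HNRNPC list whose summit lies in the gene's span in RefSeq (human genome build 38). DPYSL2 was singled out because its highest peak was the third highest of any protein-coding gene, so its fold is a description and was not tested. The family held 16 of the 23111 peaks on chromosomes 1 to 22, X and Y, and all 16 lay in DPYSL2.

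A549, labelled NCI-A549, is a long-used cell line grown from a human non-small cell lung cancer, and no treatment or genetic change is named in the labels. RNA immunoprecipitation sequencing was done on 2 samples, 1 library from RNA recovered with 5 µg of HNRNPC antibody (IP) and 1 input library without antibody. Neither group was replicated, so the spread between cultures is unknown and nothing here was tested between the samples. Fold enrichment, a ratio over the caller's background at the summit, and the q of each peak are the authors' values. The list holds peaks, not expression, so the labelled cell type could not be checked from it: of 19 lung epithelial and A549 markers, CDH1 and ALDH1A1 carried peaks (10 and 8), and the surfactant genes carried none. That is 10.5% of the list, beside 18.4% of all protein-coding genes, and the markers have short spans, with a median of 17.2 kb against 24.1 kb.

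The collapsin response mediator proteins are cytosolic phosphoproteins related in sequence to dihydropyrimidinase, an enzyme of pyrimidine breakdown, and are best known in growing neurons. There they pass on the repulsive signal of class 3 semaphorins, received by neuropilins and plexins, to microtubules and actin. DPYSL2, also called CRMP2, binds tubulin dimers and promotes microtubule growth, and its phosphorylation by kinases such as CDK5 and GSK3B releases tubulin. HNRNPC is a nuclear protein that binds runs of U in new transcripts, largely within introns.

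DPYSL2 was the member with peaks, and the other 4 genes had none. Of all 20037 protein-coding genes 18.4% carried at least 1 peak (3685 genes). DPYSL2 was singled out for its peak, so at least 1 member of 5 with a peak was given by that choice. Nothing is therefore drawn from setting the family's share beside that of all genes. DPYSL2 (NCBI gene 1808) spans 144 kb on chromosome 8, 26514031 to 26658175, and held 16 peaks, or 11.1 per 100 kb. Among protein-coding genes 306 (1.53%) held at least as many, and the median of those with a peak was 4. Of the 1013 genes within 1.2 times its length either way, DPYSL2 included, 42.0% carried a peak and 84 had 16 or more. Relative to its span DPYSL2 was less prominent, ranking 1234 of the 3685 genes by peaks per 100 kb.

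DPYSL3, or CRMP4, which is known to bundle actin, spans 119 kb on chromosome 5, 147390808 to 147510068, and its nearest peak lay 733 kb away. Of the 1197 protein-coding genes within 1.2 times its length either way, 39.7% carried a peak. DPYSL4, or CRMP3, is the shortest member at 18.8 kb (chromosome 10, 132186948 to 132205759). Its nearest peak was 1203 kb away, and 12.9% of the genes of like span carried one. DPYSL5, or CRMP5, is the most divergent member and the target of a paraneoplastic antibody. It spans 102 kb on chromosome 2, 26847995 to 26950351, with the nearest peak 53.0 kb below the span and outside any gene, at a fold of 4.58. CRMP1, which has been studied as a suppressor of lung cancer cell invasion, spans 72.3 kb on chromosome 4, 5820764 to 5893086. Its span overlaps that of EVC by 8294 bp, and neither of the 2 peaks of EVC (highest fold 4.30) fell in the shared stretch. Among genes of like span 39.5% carried a peak for DPYSL5 and 34.9% for CRMP1. Expression is not measured in the list, so a gene without a peak is not shown to lack HNRNPC on its RNA.

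**Figure D1:**
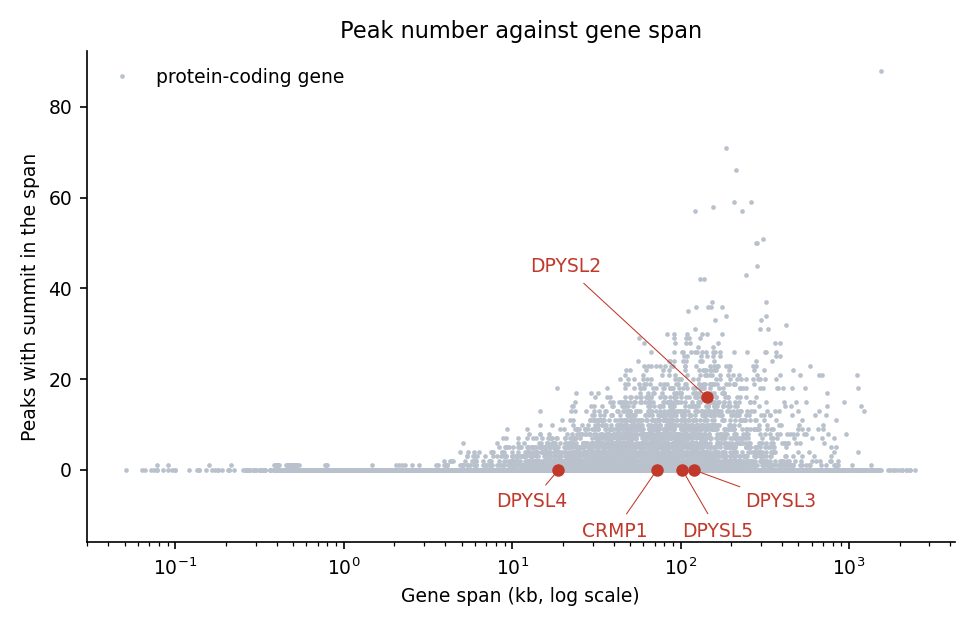
Number of peaks with the summit in the gene span (vertical axis) against span length in kb (log scale) for 20037 protein-coding genes, grey, with the 5 family members in red. DPYSL2 stands at 16 peaks, and DPYSL3, DPYSL4, DPYSL5 and CRMP1 stand at 0.

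The highest DPYSL2 peak reached a fold enrichment of 25.3, and its −log10 q was 45.8. It lay at chromosome 8, 26624121 to 26624330, 110 kb into the span. The gene above it by highest fold was PTBP3 at 25.8, which encodes a splicing regulator that binds pyrimidine tracts, and the gene below it was PDE4D at 24.7. The median over the 3685 genes of their highest fold was 7.04. In all, 3 of the 20037 genes (0.015%), DPYSL2 included, had a peak at least that high. By −log10 q DPYSL2 ranked 4.

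The numbers of reads behind these folds could be worked out from the list. Taking fold as the ratio of IP to control level with 1 added to both, and p as the Poisson tail, a whole number of IP reads per summit matched fold and p in all 23148 peaks (tolerance 0.002 in −log10 p). In 23064 of them a single number did so, all DPYSL2 peaks among these. Each IP read then weighed 0.5355 control reads, as when an IP library 1.87 times as deep is scaled down. A control level below 1 means that no control read lay over the summit. The level is then an average over a wider stretch, as it may also be where a level above 1 is not whole. Whether the control was the input library is not stated in the sources used here.

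At the highest DPYSL2 peak 52 IP reads lay over the summit and no control read (level 0.141). The deepest DPYSL2 summit had 55 IP reads, and by this count the gene ranked 59 of 3685. With only peaks at a control level of 1 or more its highest fold was 12.0 and its rank 21 of 1970 genes. DPYSL2 was singled out by its place by fold, so lower places by other measures may follow from that choice. Nothing is drawn from the difference. The third place by fold was that of a summit without a control read.

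**Figure D2:**
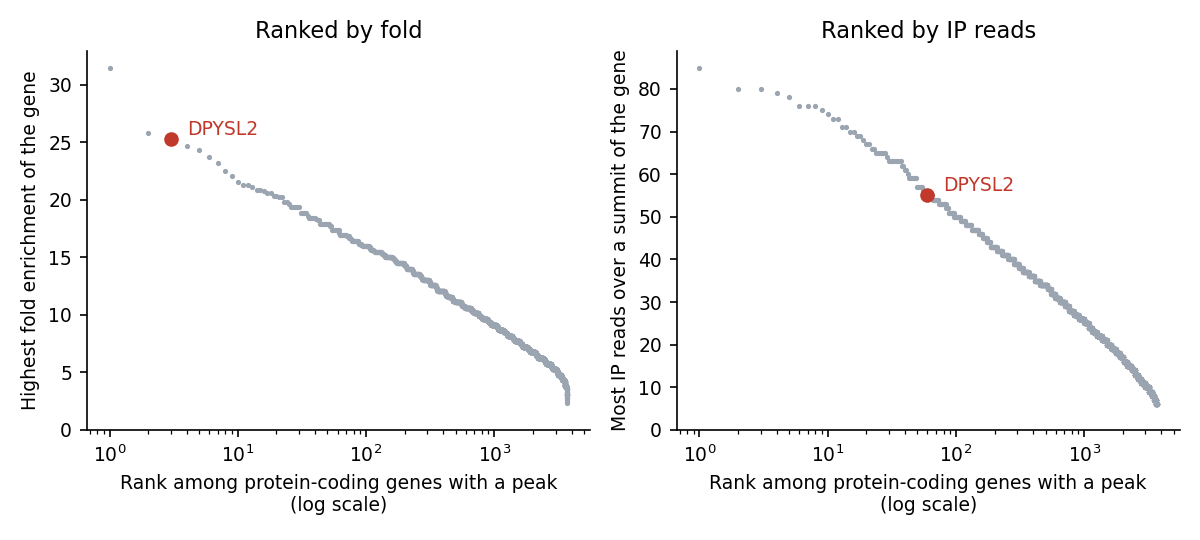
Protein-coding genes with a peak, ranked (log scale) by their highest fold enrichment (left) and by the most IP reads over any of their summits (right), with DPYSL2 in red. DPYSL2 ranks 3 by fold, at 25.3, and 59 by IP reads, at 55.

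DPYSL2 peaks were high in reads as a group. IP reads over the summit ran from 18 to 55 with a median of 41, against a median of 15 over all peaks. All 16 DPYSL2 summits were above that median, and 13 were within the highest 10% of all peaks. The median fold was 8.14 (quartiles 6.41 and 11.4, range 2.54 to 25.3), against 5.76 over all peaks, with 13 of the 16 above it and 7 within the highest 10%. Widths ran from 47 to 497 bp, with a median of 197.5 bp against 125 bp over all peaks. Together the peaks covered 3647 bp, or 2.53% of the span.

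The peaks fell into 3 stretches, separated by gaps of 63.7 and 40.4 kb. A lone peak at the lower end of the span, 26514318 to 26514671, had its summit 0.462 kb inside the gene. Its fold was 9.64 over 18 IP reads and no control read, the fewest IP reads of the 16. The second stretch had 3 peaks, 64.1 to 69.8 kb into the span. They had folds of 15.5, 8.26 and 11.2 over 30, 29 and 40 IP reads. No control read lay over the first of these summits and 1 over each of the others.

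The third stretch held the other 12 peaks, from 110 to 143 kb. It opened with the highest peak and, at 113 to 114 kb, a cluster of 3. The first of these, 47 bp wide, had a fold of 5.59 over 19 IP reads. Next came folds of 12.0 over 43 IP reads and 14.5 over 28. A peak 121 kb into the span followed, with a fold of 10.4 over 37 IP reads. Up to this point no DPYSL2 summit had a control level above 1.

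The last 16 kb of the span were marked off after seeing the data, where the control level first passes 1. The split by control level thus follows from that choice, and at a given IP count a higher control level lowers the fold by definition. All 7 peaks there had a control level of 2 or more, and their folds, from 2.54 to 8.01, were lower than 8 of the 9 folds before them. Their IP reads, from 38 to 55, were not lower: the median was 43, against 30 for the 9 earlier peaks. A pair at 129.5 and 130.0 kb had folds of 8.01 and 7.12 over 43 and 38 IP reads and 2 control reads each. The next summits, at 134 and 138 kb, had 47 and 43 IP reads, 3 control reads each, and folds of 6.54 and 6.01.

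The last 3 peaks lay within 5 kb of the upper end. Those at 139 and 142 kb had 42 and 53 IP reads at a control level of 3.19 and folds of 5.60 and 7.01. The final peak, 26656239 to 26656735, was the widest of the 16 and had both the most IP reads, 55, and the most control reads, 11. Its fold, 2.54, was the lowest of the gene and ranked 23057 of 23111. The peak with the most IP reads in DPYSL2 was thus the lowest by fold, and the peak with the highest fold had 3 IP reads fewer.

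**Figure D3:**
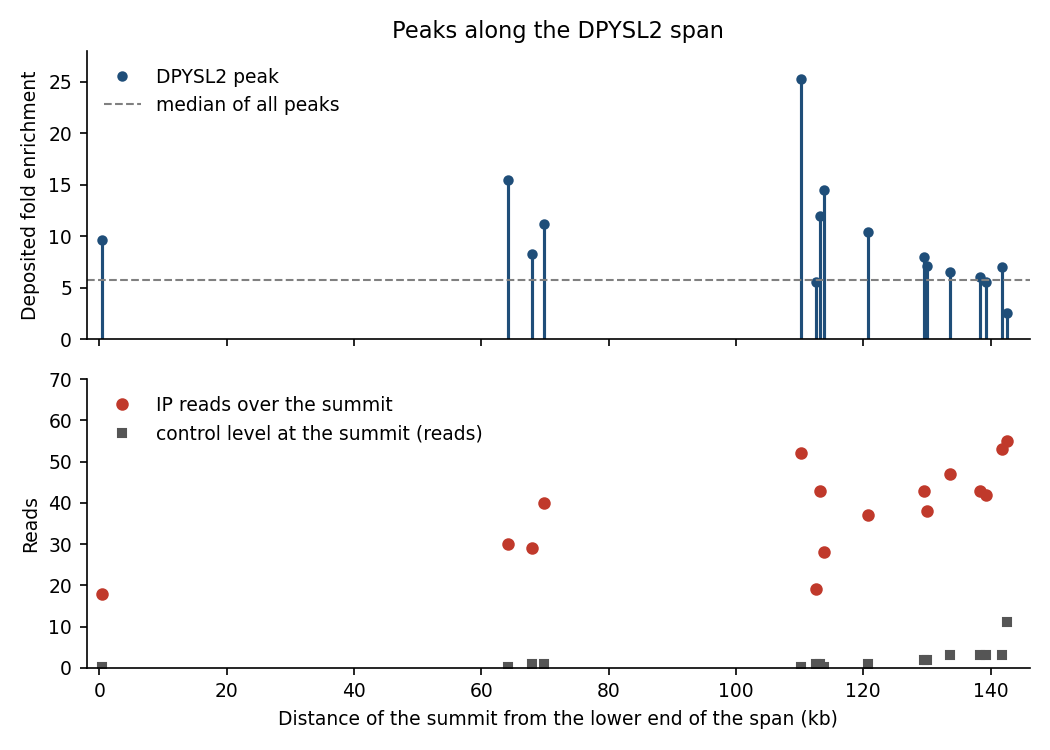
The 16 DPYSL2 peaks by distance of the summit from the lower end of the span in kb, with the deposited fold enrichment (top, dashed line at the median of all peaks, 5.76) and the IP reads and control level at the summit (bottom). Fold is highest at 110 kb and lowest, 2.54, near the upper end, where the control level reaches 11 and IP reads reach 55.

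Counting error is wide at these depths. Where no control read was seen, 3 control reads were taken as the approximate 1-sided 95% upper limit for a count of 0. The scaled IP level at the highest peak was then at least 9.28 times the control. This bound takes the IP count as exact, so it is less cautious than the intervals that follow and is not set against them. For the final peak, the scaled ratio without the added 1 was 2.68 (95% exact Clopper-Pearson interval 1.39 to 5.67). At the peak of fold 12.0, with 43 IP reads and 1 control read, it was 23.03 (3.92 to 930). Near the middle of the last 16 kb, 47 IP reads over 3 control reads gave 8.39 (2.70 to 42.1). The intervals at 1 and at 3 control reads overlap widely. The highest and the final peak were picked as the extremes of the gene by fold, so their values are set side by side with no comparison. These intervals cover counting error only, and summits were placed where IP reads were most numerous.

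Along DPYSL2 the control level was higher toward the upper end (Spearman correlation with position 0.896 over the 16 peaks), as were IP reads (0.676), and the fold was lower (−0.676). The peaks share 1 library and 1 gene, so these are descriptions with no p. DPYSL2 is known to be transcribed toward higher coordinates, so the upper end is the 3′ end of the gene. A control level higher toward the 3′ end was common among 636 other protein-coding genes with 10 or more peaks and a known strand. This correlation was above 0 in 571, with a median of 0.513. In 15 of them it was at least as high as in DPYSL2. The median share of summits without a control read was 73.3% per gene, and there the level is an average below 1. The correlation can thus rank averages and not reads. Of the 15, TNRC6B (0.946) and MTMR4 (0.902) had no summit with a control read, and CPSF2 (0.927) had 25% without one. For the fold the median correlation of those genes was −0.222, and in 35 it was at or below the DPYSL2 value. The same genes had a median IP read count per summit of 15.75, and in 10 it was at least the 41 of DPYSL2.

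Control reads were also commoner under DPYSL2 peaks than elsewhere. The control level was below 1, with no control read, at 4 of its 16 summits (25%), against 69.4% of all peaks and a median of 73.3% per gene over the same 636 genes. In 45 of the 636 the share was as low or lower. RefSeq lists 3 transcripts of DPYSL2, but the gene table gives no exon positions, so whether a summit was exonic or intronic was not analysed here.

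**Figure D4:**
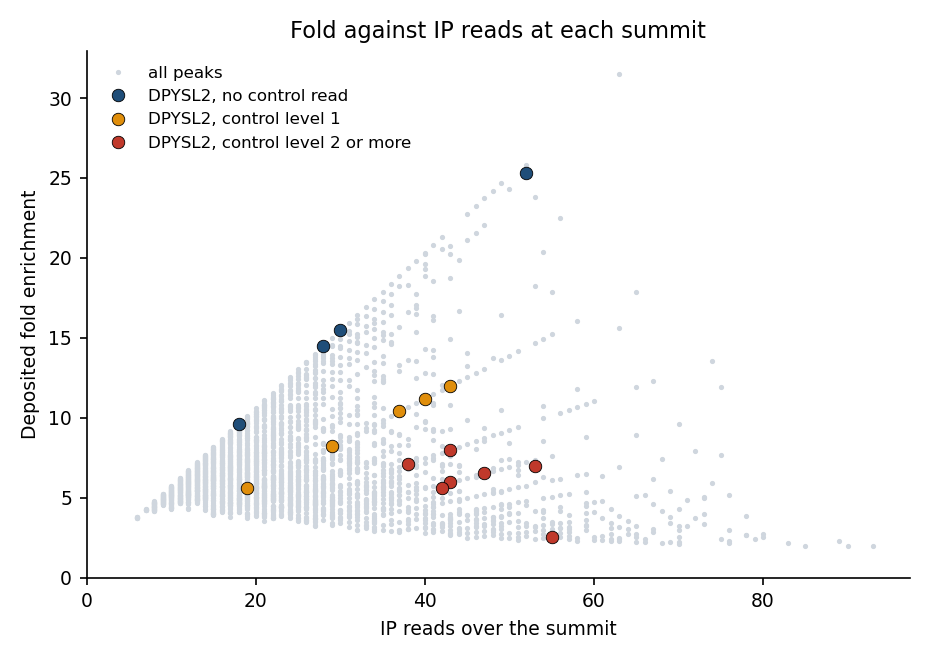
Deposited fold enrichment against IP reads over the summit for all peaks (grey) and the 16 DPYSL2 peaks, coloured by control level. The 4 DPYSL2 summits without a control read lie along the upper edge, up to a fold of 25.3 at 52 reads, and the summit with 55 IP reads and 11 control reads lies at the lower edge at 2.54.

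The DPYSL2 peaks could be assigned to that gene alone, apart from strand. The pseudogene PSME2P5 and the lncRNA gene LOC124901916 lie within its span, and no summit fell in either. PNMA2, a paraneoplastic antigen gene, ends 158 bp below DPYSL2 and held 3 peaks. One of these, just outside the DPYSL2 span with its summit 197 bp below, had a fold of 6.12 over 21 IP reads and 1 control read. The list gives no strand, so RNA of either strand could lie under a peak near this boundary. On the other side ADRA1A, 89974 bp away, had no peak.

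The genes most like DPYSL2 in peak number, highest fold and span (distance in SD units over the 3685 genes with a peak) were PTBP3 at 0.122, AP2B1 at 0.641, TBL1XR1 at 0.683, PTPN11 at 0.694 and LARP1 at 0.717. PTBP3 also had 16 peaks and a highest fold of 25.8, over 52 IP reads and no control read. Its median fold was higher than that of DPYSL2, 12.01 against 8.14, and 7 of its 16 summits had no control read. The PTBP3 summit with the most control reads, 8 under 53 IP reads, had the lowest fold, 3.26. At a given IP count a higher control level lowers the fold by definition, so nothing is drawn from this. AP2B1 had 11 peaks with a highest fold of 20.8, and TBL1XR1, PTPN11 and LARP1 had 16 each with 19.8, 20.6 and 19.3.

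Known partners of the collapsin response mediator proteins carried peaks in 13 of 55 cases (23.6%), beside 18.4% of all protein-coding genes. The partners have longer spans, with a median of 52.8 kb against 24.1 kb, and span differs with peak content, as the shares of genes of like span above show. The median of their highest folds was 9.16, against 7.04 for all genes with a peak. A highest fold can only rise as a gene holds more peaks. The 13 held from 1 to 28, and the median of all genes with a peak was 4, so the 2 values are not a like comparison. Among the ligands SEMA3A and SEMA3C, secreted semaphorins, had 8 and 15 peaks with highest folds of 11.2 and 12.6, and SEMA4D had 1. Of the 9 receptor genes NRP1, the co-receptor of SEMA3A, alone had peaks. It had 11, with a highest fold of 13.1 and up to 47 IP reads, and every one of its summits had a control level of 1 or more.

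Of the 14 kinase and phosphatase genes 5 carried peaks. ROCK2, a kinase that phosphorylates DPYSL2, had 28 with the highest fold of the list, 18.9, and its paralog ROCK1 had 19 with 9.16. All 19 ROCK1 summits lacked a control read, as did all 13 of DYRK1A, whose highest fold was 13.1. DYRK2 had 7 peaks, and GSK3B had 9. CDK5 and FYN had none. Of the GTPases CDC42 had 1 peak. Among cargo, cytoskeleton and endocytosis partners KIF5B, a kinesin heavy chain, had 22 peaks with a highest fold of 13.4, NUMB had 3 with 9.16 and ITSN1 had 4. The tubulin genes and the homologue DPYS had none.

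**Figure D5:**
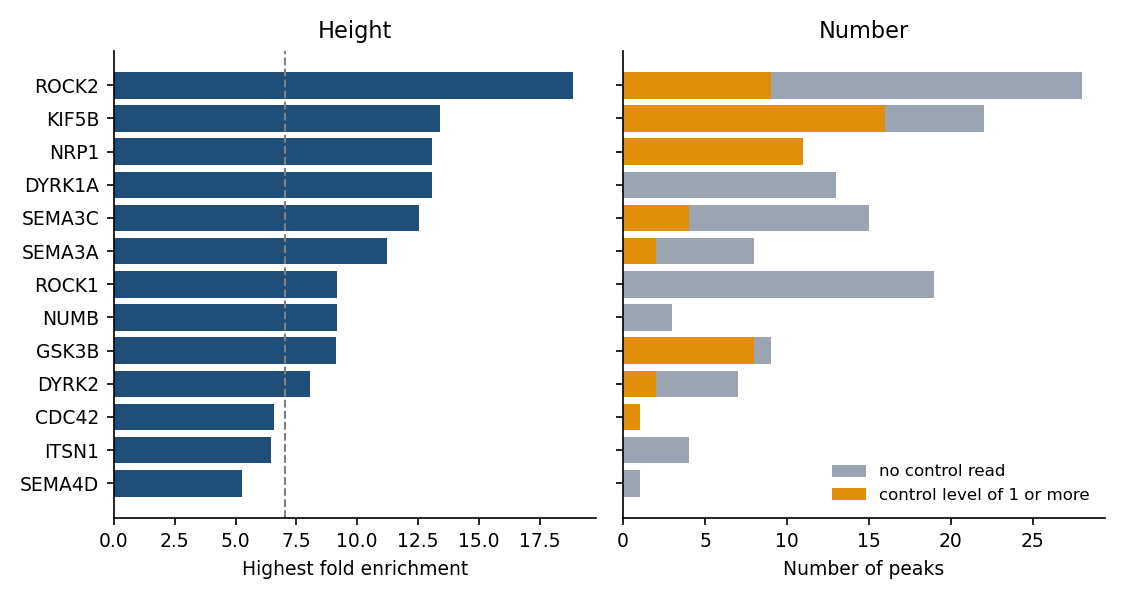
Highest fold enrichment (left, dashed line at 7.04, the median over protein-coding genes with a peak) and number of peaks (right, orange for a control level of 1 or more, grey for none) of the 13 partner genes with a peak. ROCK2 is highest at 18.9 with 28 peaks, and all peaks of NRP1 have a control level of 1 or more.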

How the data were processed

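The values are the deposited peaks of the IP sample. Per the submitters' processing notes the tools were HISAT2, MACS2 and bedtools and the build hg38; versions, roles and settings are not given in the sources used here. In the deposited list each peak has a fold enrichment (a ratio), the −log10 of p and of q, a score (in each of the 23148 peaks, 10 times the −log10 q cut to a whole number) and a summit offset. The authors' read totals are not in the list, so absolute depth is unknown, and the 37 peaks on other contigs were left out. Coordinates are 1-based.

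Gene spans came from RefSeq GRCh38 patch 14. A summit counted for each span that held it. IP reads and control level per summit were solved from fold and p, a procedure tested on simulated data. Named genes were the members, neighbours, the 5 genes nearest DPYSL2 in scaled log10 peak number, highest fold and span, and partners with a peak, 8 of them with their fold. Members and lists were chosen with earlier results of these data known. Alternatives kept peaks by q (0.001 or less), by fold (4 or more) or by control level (1 or more), or changed the overlap rule or the ranking. The stretches and the trend along genes were chosen after seeing the data. The tools used were scipy 1.17.1, pandas 2.3.3 and numpy 2.4.6 under Python 3.11.15, with matplotlib 3.10.9 for figures.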

Additional observations from a re-analysis of the deposited data

How the results depend on the processing

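The count of 16 DPYSL2 peaks stayed within 1.5 times under every alternative run. The counts of 0 for DPYSL3, DPYSL4, DPYSL5 and CRMP1 also stayed at 0, but this was fixed in advance. The filters can only remove peaks. No overlap rule could add one, as the closest peak, that near DPYSL5, lay 53.0 kb outside the span. The median DPYSL2 fold was 8.26 with q of 0.001 or less and also with a fold of 4 or more. The rank of the highest DPYSL2 peak among genes was 4 by −log10 q. Alternatives using the control level or IP reads were chosen after seeing the data. With a control level of 1 or more the highest DPYSL2 fold was 12.0, the median 7.06, the rank 21 and the partner genes with a peak 8, and ranking by IP reads gave 59. If fold were a plain ratio the control level at the highest peak would be 2.10 in place of 0.141, with p then missed by 0.125 in −log10 units. No paired analysis was possible because each group has 1 library. Depth limits the ratios, as most DPYSL2 summits had 3 or fewer control reads.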

Other observations

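Of 14 neuron markers, genes of the cells in which the collapsin response mediator family is best known, SYT1 carried 1 peak, with a fold of 5.27 over 9 IP reads and no control read. That is 7.14% of the list, beside 18.4% of all protein-coding genes. The markers have longer spans, with a median of 93.3 kb against 24.1 kb, so the share of all genes is not a like reference. The other 13, among them MAP2, DCX and TUBB3, had none. A peak list does not measure expression, so this says nothing on their levels.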
